A study of Zea mays with 9 samples.

Results

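Among the genes measured in germinating maize seeds, 60 of 39301 were lowest in the seeds given both salt and melatonin. Each had an FPKM value (fragments per gene length and library size) in all 3 NaCl+MT libraries below every one of the 6 CK and NaCl values. In addition, the level of each, log2 of the group mean FPKM plus 1, was lower in NaCl+MT than in CK and than in NaCl by at least 0.6. The genes were thus chosen by these measured FPKM values, so the low NaCl+MT level is given below as a description and was not tested.

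The study is an RNA sequencing comparison of Zea mays seeds at germination, in 3 groups of 3 biological replicates. NaCl+MT seeds received, by their label and the study title, salt and exogenous melatonin, NaCl seeds received salt, and CK is the label of the remaining group, usually an untreated control. The labels give no dose, duration, variety or order of treatment, and do not say how many seeds or which seed parts went into a library. Replicates are labelled biological, and nothing more is said of their origin.

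Melatonin is an indoleamine that plants make from tryptophan, the amino acid from which the hormone auxin also derives. A germinating maize seed lives on reserves: the endosperm and scutellum break down starch, protein, oil and soluble sugars, and the products feed the growing root and shoot. Salt in the medium slows water uptake and brings sodium into the tissue.

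Depth relative to CK replicate 1, read from the steps between low FPKM values, was 0.89 to 1.01 in the NaCl+MT libraries, 0.537 to 1.25 in the NaCl libraries and 1.00 to 1.82 in the CK libraries. NaCl replicate 3 was the shallowest library and had a value of 0 for 12558 genes; in the other 8 libraries this was so for 9986 to 10802. Absolute depth is not known, so no counting error is attached to single values. By symbol, the summed FPKM of 30 endosperm storage genes was 65.2 to 86.2 in NaCl+MT libraries, 236 to 384 in NaCl libraries and 41.3 to 52.4 in CK libraries. The corresponding sums of 16 embryo maturation genes were 182 to 226, 155 to 179 and 151 to 161, those of 14 shoot and leaf genes 76.3 to 96.7, 44.6 to 73.8 and 96.1 to 115, and those of 3 root genes 23.7 to 25.1, 17.9 to 21.4 and 21.1 to 24.6. None of these marker genes was among the 60. The lists were matched by the letters of symbols and are mixed. The embryo list holds fl1 and several genes with EMB symbols, whose part in maturation is not given. The endosperm list holds sh2, bt1, bt2, SH-1 and o2, whose symbols are not those of storage proteins. The sums were not split by gene, so they are not clean markers of embryo maturation or of storage proteins. Of the endosperm storage genes, 11 were listed at 0 in all 9 libraries and 5 were expressed highly enough to be tested, so the label seed rests here on few defining genes. In bulk seed samples, fewer cells of a type and less RNA per cell cannot be told apart, and the part of tissue composition in the differences below was not tested.

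Genes lowest in NaCl+MT were few. The level difference of 0.6 or more below CK was met by 1.73% of all genes, that below NaCl by 5.19%, both by 0.267%, and the order of the 9 values by 1.56%; the 60 genes that met all of these are 0.153% of the table. The mirrored rule, highest in NaCl+MT by the same limits, was met by 242 genes (0.616%). The number lowest in NaCl+MT was 99 without NaCl replicate 1 and 93 without NaCl+MT replicate 3, and 53 to 84 without any other single library. It was 95 after median-ratio scaling and 103 after quantile normalisation. Leaving out a library, here and below, leaves fewer values for the order condition to hold over. A rise in the number is therefore not assigned to the library left out.

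**Figure D1:**
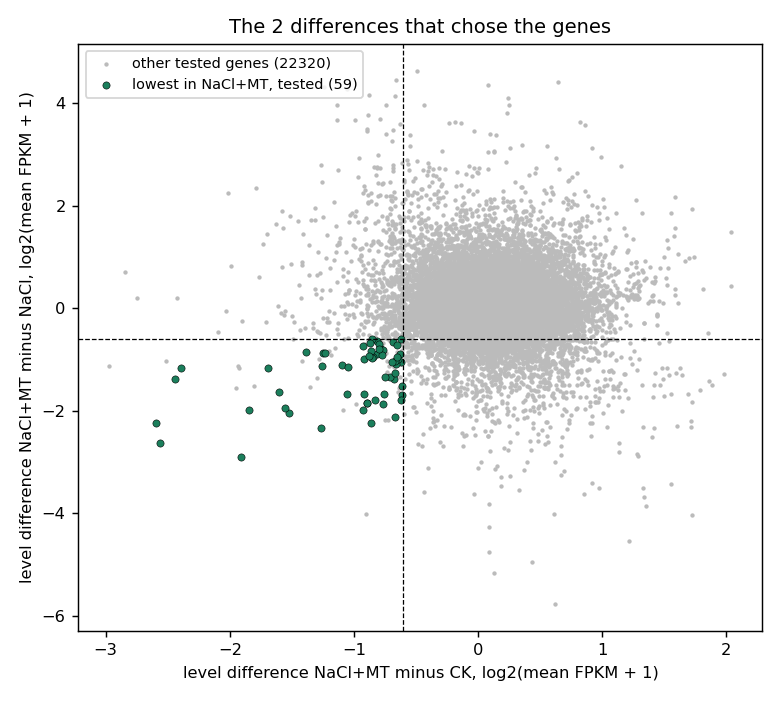
Level difference NaCl+MT minus CK (x axis) against NaCl+MT minus NaCl (y axis), both on log2(mean FPKM + 1), for the 22379 tested genes. The 59 tested genes of the set (green) lie left of and below the dashed lines at -0.6; grey points in the same corner failed the order condition.

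In NaCl and CK the median level of the 60 genes was close to that of all tested genes. Mean FPKM ran from 0.117 to 136 in NaCl+MT, from 1.03 to 436 in NaCl and from 1.00 to 231 in CK, and the median over the 60 genes was 3.02 in NaCl+MT, 8.25 in NaCl and 7.43 in CK. Over all tested genes the median was 7.78 in NaCl+MT, 7.62 in NaCl and 7.22 in CK. All 3 NaCl+MT values were under 1 FPKM in 14 genes. GRMZM2G130738 was listed at 0 in NaCl+MT replicate 2, and none of the 60 was listed at 0 in a NaCl or CK library.

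The fall was larger against NaCl in 43 genes and larger against CK in 17. The median level difference was -1.12 to NaCl and -0.85 to CK. Taking for each gene the smaller of its 2 falls, the median was -0.82, 15 genes fell short of CK and NaCl alike by 1 or more, and 20 lay between -0.6 and -0.7. Just inside the limit were GRMZM2G082886 (-0.61), GRMZM2G020653 (-0.61) and GRMZM2G014526 (-0.60), and just outside it GRMZM2G132929, GRMZM2G062121 and GRMZM2G180218 (all -0.59), so the edge of the set does not mark a break in the values.

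**Figure D2:**
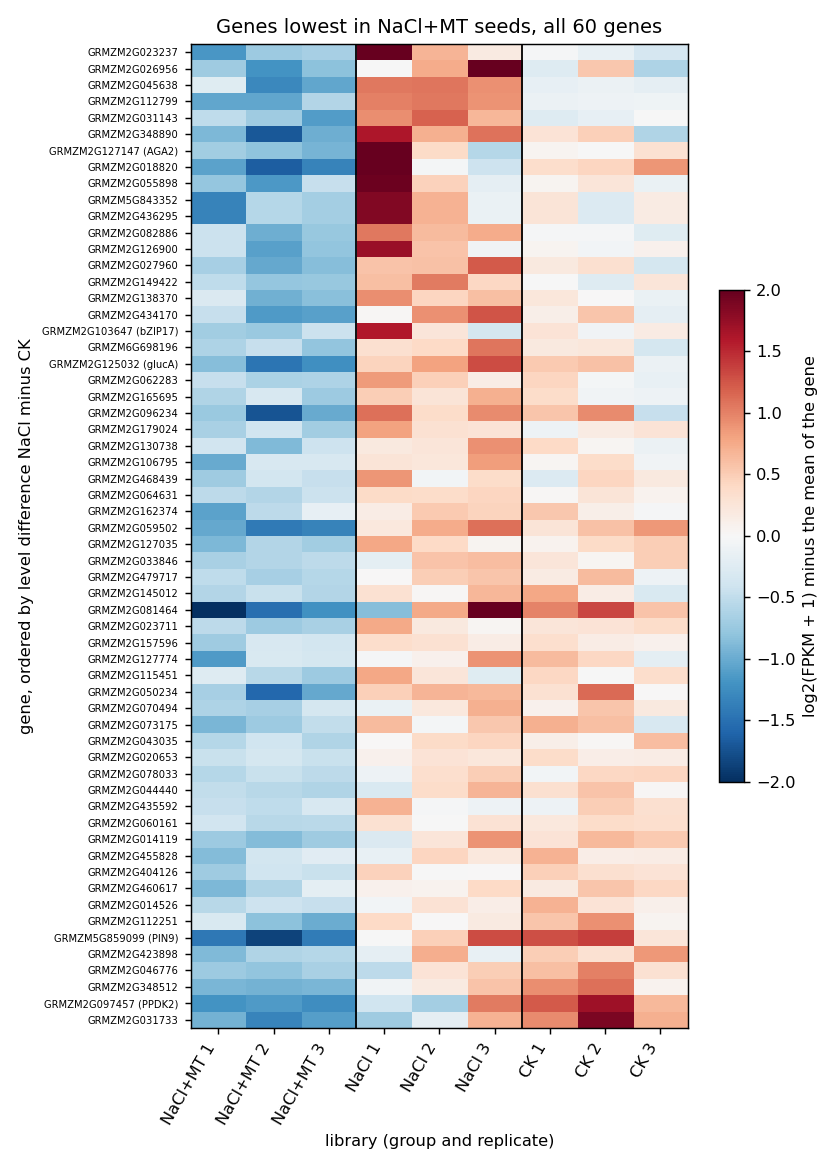
Log2(FPKM + 1) minus the mean of the gene (colour, cut at -2 and 2) in the 9 libraries (columns) for the 60 genes (rows, ordered by the level difference NaCl minus CK). All genes are low in the 3 NaCl+MT columns by choice; NaCl replicate 1 is the darkest NaCl column in one block of rows near the top and NaCl replicate 3 in other rows.

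RefSeq gives a name other than a locus or clone number to exactly 1 match for 5 of the 60 genes. Of the IDs, 36 matched 1 RefSeq gene, 2 matched several and 22 matched none, and the 38 matched were protein coding. Over all tested genes 9.05% had a name, so most of what follows concerns genes with no stated role. The named ones are an auxin carrier, a cell wall glucanase, an enzyme of phosphoenolpyruvate synthesis, a galactosidase of raffinose sugars and a transcription factor.

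PIN9 (GRMZM5G859099) belongs to the PIN family of auxin carriers, many of which export auxin across the plasma membrane and so direct its flow. Its FPKM was 0.6, 0.192 and 0.633 in NaCl+MT replicates 1 to 3, against 3.26, 4.97 and 9.57 in NaCl and 9.44, 10.2 and 4.08 in CK. All NaCl+MT values were under 1 and all others over 3, and the NaCl and CK values overlapped. Mean FPKM was 0.475 ± 0.246 in NaCl+MT, 5.93 ± 3.26 in NaCl and 7.90 ± 3.33 in CK (SD, n = 3 each), which is 12.5-fold lower than NaCl and 16.6-fold lower than CK. Between NaCl and CK the log2 fold change was -0.38 (SE 0.36, adjusted p = 0.465, limma).

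The table holds 7 other IDs with PIN names, 3 of them expressed highly enough to be tested, and none was lowest in NaCl+MT. PIN1a (GRMZM2G098643) had 14.3, 16.1 and 14.3 FPKM in NaCl+MT, against 6.03, 7.04 and 5.35 in NaCl and 18.5, 19.1 and 21.1 in CK. It was thus higher in NaCl+MT than in NaCl (log2 fold change 1.16, SE 0.13, adjusted p = 0.00033, limma) and lower in NaCl than in CK (-1.53, SE 0.13, adjusted p = 3.63e-05). PIN10a (GRMZM2G126260) averaged 5.55 ± 1.21 FPKM in NaCl+MT, 2.83 ± 1.51 in NaCl and 4.36 ± 0.108 in CK, a log2 fold change of 0.83 over NaCl (SE 0.24, adjusted p = 0.0390). That call was lost without any CK library (adjusted p = 0.0549 to 0.0588), without NaCl replicate 1 (0.0956) or 2 (0.0994) and without NaCl+MT replicate 2 (0.142) or 3 (0.104). The CK libraries do not enter this difference, and its log2 fold change stayed at 0.83 without any of them. Here and below, leaving out a library of the third group alters the spread shared by the groups, not the fold change. PIN8 (GRMZM5G839411) averaged 1.32 ± 0.234, 0.857 ± 0.144 and 1.05 ± 0.313 FPKM in NaCl+MT, NaCl and CK, and none of its 3 comparisons passed the threshold (adjusted p = 0.203, 0.578 and 0.584 for NaCl+MT over NaCl, NaCl over CK and NaCl+MT over CK).

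A list of auxin genes matched by symbol (carriers, response factors, synthesis and conjugation) held 42 tested genes beside PIN9, of which a few may belong to other families with like symbols. Of the 42, 13 were higher and 0 lower in NaCl+MT than in NaCl, where 11.6% and 7.02% of all tested genes were at the same adjusted threshold. At an unadjusted limma p under 0.05 the counts were 16 and 1. No share of all tested genes was computed at that unadjusted limit, so the unadjusted counts here and below have no background. Between NaCl and CK, 3 were higher and 14 lower (13.6% and 12.4% of all tested genes), with a median log2 fold change of -0.35, against 0.03 over all tested genes. Between NaCl+MT and CK 0 passed in either direction by limma (0.679% and 0.282% of all tested genes; 4 and 5 at an unadjusted p under 0.05). The NaCl libraries are shared by the first 2 of these comparisons. The count of 13 higher was 7 without NaCl+MT replicate 2 and 6 without NaCl+MT replicate 3, the 14 were 9 without CK replicate 1, and the 3 were 1 without CK replicate 1, CK replicate 3 or NaCl replicate 1.

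The glucanase gene glucA, also named Gns1 (GRMZM2G125032), encodes a beta-glucanase, an enzyme that cleaves beta-linked glucans such as those of cell walls. It was one of the most abundant genes of the set, with 32.3, 20.8 and 24.6 FPKM in NaCl+MT, against 80.4, 104 and 147 in NaCl and 85.0, 89.0 and 54.3 in CK. The highest NaCl+MT value stood well below the lowest of the others, in CK replicate 3. Means were 25.9 ± 5.89 in NaCl+MT, 111 ± 33.8 in NaCl and 76.1 ± 18.9 in CK, 4.27-fold and 2.94-fold lower than NaCl and CK. NaCl over CK gave a log2 fold change of 0.52 (SE 0.26, adjusted p = 0.165, limma), which did not pass the threshold. A second ID of the same RefSeq gene, GRMZM2G433365, was listed at 0 in 8 libraries and at 0.028 in NaCl replicate 1.

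**Figure D3:**
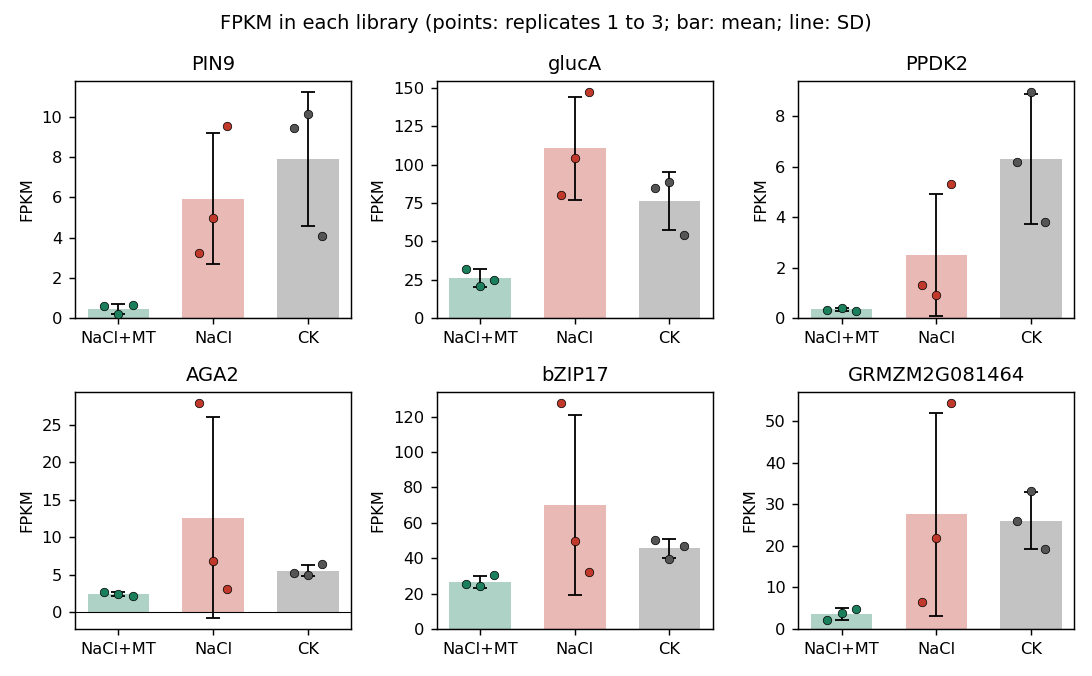
FPKM (y axes; the AGA2 axis runs below 0 to show the SD) of 6 genes of the set in NaCl+MT, NaCl and CK; points are replicates 1 to 3 from left to right, bars the means and lines the SD. NaCl+MT points lie below all others in each panel; in AGA2 and bZIP17 NaCl replicate 1 is the high point (28.0 and 128 FPKM), and in PPDK2 and GRMZM2G081464 NaCl replicate 3 (5.30 and 54.4 FPKM).

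PPDK2, also named CYPPDKZM2 (GRMZM2G097457), encodes a pyruvate phosphate dikinase, which turns pyruvate into phosphoenolpyruvate; its relatives serve C4 photosynthesis in leaves and carbon recycling in other tissues. It had 0.337, 0.399 and 0.301 FPKM in NaCl+MT, against 1.33, 0.916 and 5.30 in NaCl and 6.19, 8.96 and 3.82 in CK. CK values were the highest of the groups except that NaCl replicate 3 lay within the CK range. NaCl averaged 2.52 ± 2.42 and CK 6.32 ± 2.57, a log2 fold change of -1.20 (SE 0.40, adjusted p = 0.0469, limma). This call stood at the threshold and was lost without CK replicate 1 (0.116) or 2 (0.151), NaCl replicate 1 (0.114) or 2 (0.133), or any NaCl+MT library (0.0646 to 0.0666).

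The other PPDK gene of the table, C4ppdkZm1 (GRMZM2G306345), is listed at far higher levels. It averaged 766 ± 195 FPKM in NaCl+MT, 511 ± 64.2 in NaCl and 873 ± 240 in CK, with overlapping NaCl+MT and CK values. No comparison of this gene passed the threshold (limma adjusted p = 0.195 for NaCl+MT over NaCl, 0.0713 for NaCl over CK and 0.766 for NaCl+MT over CK). How the counting treated reads common to both PPDK genes is not given and was not tested, so the values of PPDK2 are uncertain.

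PPDK2 is also the one gene of the set in the symbol list of photosynthesis genes, which holds 24 other tested genes, some of them of other families caught by the letters of their symbols. Of the 24, 6 were higher and 2 lower in NaCl+MT than in NaCl (11.6% and 7.02% of all tested genes), and 3 were higher and 3 lower in NaCl than in CK (13.6% and 12.4% of all tested genes). Between NaCl+MT and CK 0 passed by limma, where 0.679% of all tested genes were higher and 0.282% lower (5 higher and 0 lower of the 24 at an unadjusted p under 0.05). The 6 were 3 without NaCl+MT replicate 1 or 3, the 2 were 1 without NaCl replicate 3 or NaCl+MT replicate 1 or 2, and the 3 lower ones were 1 without CK replicate 2.

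AGA2 (GRMZM2G127147) encodes an alkaline alpha-galactosidase, of a family of enzymes that remove galactose from raffinose sugars, soluble reserves of the seed. Its FPKM was 2.73, 2.45 and 2.15 in NaCl+MT, against 28.0, 6.84 and 3.05 in NaCl and 5.25, 4.97 and 6.42 in CK. The NaCl libraries spread widely, with replicate 1 far above the rest and replicate 3 near the NaCl+MT values. NaCl averaged 12.6 ± 13.4 and CK 5.55 ± 0.765 (log2 fold change 0.58, SE 0.53, adjusted p = 0.453, limma), a difference within the spread of the replicates, and without NaCl replicate 1 the log2 fold change was -0.21.

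Its relatives in the table differ from it and from each other. AGA1 (GRMZM2G340656) averaged 78.6 ± 2.56 FPKM in NaCl+MT, 86.7 ± 1.82 in NaCl and 38.4 ± 10.1 in CK, and was higher in NaCl than in CK (log2 fold change 1.19, SE 0.18, adjusted p = 0.00119, limma). It was also higher in NaCl+MT than in CK (1.05, SE 0.18, adjusted p = 0.0314), a call lost without CK replicate 1 (0.0726) or 3 (0.0831) or any NaCl+MT library (0.108 to 0.121). AGA3a (GRMZM2G050177) averaged 0.961 ± 0.378 in NaCl+MT, 1.24 ± 0.956 in NaCl and 3.56 ± 0.772 in CK. It was lower in NaCl than in CK (-1.10, SE 0.29, adjusted p = 0.0183; 0.0646 without CK replicate 1 and 0.0632 without CK replicate 3). In NaCl+MT against CK its limma adjusted p was 0.0742, which was 0.0148 without NaCl replicate 1 and 0.0389 without NaCl replicate 3. AGA3b (GRMZM2G037265) averaged 1.03 ± 0.0578, 1.22 ± 0.434 and 2.28 ± 0.585 in NaCl+MT, NaCl and CK. Its log2 fold change NaCl over CK was -0.56 (adjusted p = 0.0486), which was lost without any single library other than CK replicate 2 or NaCl replicate 1 (0.0615 to 0.160).

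The basic leucine zipper transcription factor gene bZIP17, also named bZip112 (GRMZM2G103647), had 25.2, 24.4 and 30.6 FPKM in NaCl+MT, against 128, 49.4 and 32.3 in NaCl and 50.4, 39.6 and 46.7 in CK. NaCl replicate 3 lay just above the highest NaCl+MT value and NaCl replicate 1 far above all others. The log2 fold change NaCl over CK was 0.37 (SE 0.38, adjusted p = 0.504, limma), and -0.18 without NaCl replicate 1. Of 29 other tested bZIP genes, 0 were higher and 3 lower in NaCl+MT than in NaCl by limma (2 and 3 at an unadjusted p under 0.05), where 11.6% and 7.02% of all tested genes were. The count of higher genes was 2 without NaCl replicate 1 and 1 without NaCl replicate 3, and that of lower genes was 2 or 3 without any single library. Between NaCl+MT and CK 0 of the 29 passed in either direction by limma, where 0.679% of all tested genes were higher and 0.282% lower (1 and 1 of the 29 at an unadjusted p under 0.05). Between NaCl and CK 5 were higher and 4 lower (13.6% and 12.4% of all tested genes). The count of higher genes was 3 without any single CK library, NaCl replicate 1, or NaCl+MT replicate 2 or 3, and 0 without both NaCl replicates 1 and 3, and that of lower genes was 2 without CK replicate 1 or 3 or NaCl replicate 2.

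GRMZM2G157596 matched 2 RefSeq genes, of which 1 is named cenH3, the histone H3 variant that marks centromeres, so its identity is uncertain. It had 4.20, 5.79 and 5.60 FPKM in NaCl+MT, against 9.81, 9.47 and 8.4 in NaCl and 9.73, 8.41 and 8.03 in CK. NaCl and CK values overlapped (log2 fold change 0.07, SE 0.15, adjusted p = 0.749, limma). A second ID of the same 2 RefSeq genes, GRMZM2G158526, had 4.02, 4.23 and 4.35 FPKM in NaCl+MT, against 0.824, 1.57 and 2.22 in NaCl and 9.62, 5.59 and 5.78 in CK. That ID was lower in NaCl than in CK (-1.66, SE 0.24, adjusted p = 0.000705) and higher in NaCl+MT than in NaCl (1.07, SE 0.24, adjusted p = 0.0106), so the IDs under this name differ in pattern.

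Among the genes without a name, GRMZM2G081464 stood lowest by the smaller of its 2 level differences (-2.56). By fold of the mean FPKM, GRMZM2G014119 (11.0-fold below NaCl, 12.75-fold below CK) and GRMZM2G046776 (8.87-fold and 16.4-fold) were lower, with all their NaCl+MT values under 1. The FPKM of GRMZM2G081464 was 2.15, 3.78 and 4.83 in NaCl+MT, against 6.48, 22 and 54.4 in NaCl and 25.9, 33.1 and 19.2 in CK. NaCl+MT was 7.70-fold lower than NaCl and 7.27-fold lower than CK, although the highest NaCl value was 8.39 times the lowest and NaCl replicate 1 came near the NaCl+MT values. Its log2 fold change NaCl over CK was -0.32 (SE 0.57, adjusted p = 0.710, limma), and 0.43 without NaCl replicate 1.

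GRMZM2G018820 had 7.20, 4.49 and 5.85 FPKM in NaCl+MT, against 123.3, 15.8 and 12 in NaCl and 20.9, 22.3 and 30.9 in CK. NaCl replicate 1 carried the high NaCl mean of 50.4 ± 63.1. With all libraries the log2 fold change NaCl over CK was 0.25 (SE 0.66, adjusted p = 0.813, limma), and without NaCl replicate 1 it was -0.78 (adjusted p = 0.0271), below CK.

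GRMZM2G059502, GRMZM2G050234 and GRMZM2G096234 were more even within NaCl than GRMZM2G081464 and GRMZM2G018820. GRMZM2G059502 had 2.45, 1.65 and 1.79 FPKM in NaCl+MT, against 7.20, 10.8 and 14.2 in NaCl and 7.48, 9.53 and 11.9 in CK. GRMZM2G050234 had 1.13, 0.133 and 0.654 in NaCl+MT, against 3.66, 4.38 and 4.29 in NaCl and 3.14, 6.39 and 2.38 in CK. GRMZM2G096234 had 1.78, 0.410 and 1.32 in NaCl+MT, against 9.02, 4.98 and 7.96 in NaCl and 5.80, 7.98 and 2.38 in CK. In each of them the NaCl and CK values overlapped, and NaCl over CK did not pass the limma threshold (adjusted p = 0.753, 0.798 and 0.381).

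The most abundant gene of the set was GRMZM2G126900, with 170, 107 and 132 FPKM in NaCl+MT, against 752, 339 and 216 in NaCl and 236, 218 and 240 in CK. NaCl replicate 3 lay at the CK level and the other NaCl libraries above it. The log2 fold change NaCl over CK was 0.72 (SE 0.37, adjusted p = 0.182, limma), and 1.12 without NaCl replicate 3 (adjusted p = 0.0337). GRMZM2G436295 had a similar order of values, with 9.26, 16.3 and 15.1 FPKM in NaCl+MT, against 92.0, 40.8 and 22.6 in NaCl and 29.9, 20.4 and 27.9 in CK (log2 fold change 0.76, SE 0.41, adjusted p = 0.198, and 1.22 without NaCl replicate 3, adjusted p = 0.0293). Its values are identical in all 9 libraries to those of another of the 60 genes, GRMZM5G843352, so these IDs give 1 measurement and the set holds 59 distinct profiles.

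GRMZM2G455828, GRMZM2G033846 and GRMZM2G078033 were abundant genes with a small fall. GRMZM2G455828 had 42.6, 60.1 and 66.7 FPKM in NaCl+MT, against 70.1, 106 and 90.5 in NaCl and 128, 85.3 and 86.4 in CK. GRMZM2G033846 had 35.6, 37.4 and 39.1 in NaCl+MT, against 49.3, 84.6 and 87.6 in NaCl and 67.0, 58.0 and 80.1 in CK. GRMZM2G078033 had 36.3, 39.7 and 37.5 in NaCl+MT, against 50.6, 68.9 and 76.7 in NaCl and 51.9, 72.9 and 73.5 in CK. Their NaCl and CK means lay within the replicate spread of each other (limma adjusted p = 0.637, 0.823 and 0.951), and NaCl+MT replicates of the last pair of genes differed little among themselves.

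The difference between NaCl and CK was not part of the rule, although the same libraries entered it. It was tested with limma on log2(FPKM + 1) over the 22379 genes that reached 1 FPKM in 3 or more libraries. Of the 60 genes 59 did so, and GRMZM2G070494 did not. The threshold was an adjusted p of 0.05. Of the 59, 8 were higher in NaCl than in CK (13.6%) where 13.6% of all tested genes were, and 2 were lower (3.39%) where 12.4% were. The share of higher genes is that of the background. The 3 NaCl values lay all above the 3 CK values in 12 of the 59 genes (20.3%, against 22.8% of all tested genes) and all below in 1 (1.69%, against 18.1%). The rule used the same NaCl and CK values and asks both groups to stand above NaCl+MT. The shares in either direction are thus not read as a property of the genes. The cause of the low shares of lower genes was not tested. The median log2 fold change was 0.13, against 0.03 over all tested genes, and 38 of the 59 lay within 0.5 of no difference (64.4%, against 67.7% of all tested genes). The count of higher genes was 4 without CK replicate 1 and 5 without CK replicate 3. The count of lower genes was 0 without CK replicate 1 or 2, 3 without CK replicate 3, and 1 without NaCl replicate 1 or 2 or any NaCl+MT library. Without NaCl replicate 1 or 2 the 1 gene was not among the 2 called with all libraries, but was GRMZM2G018820 without NaCl replicate 1 and GRMZM2G423898 without NaCl replicate 2.

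**Figure D4:**
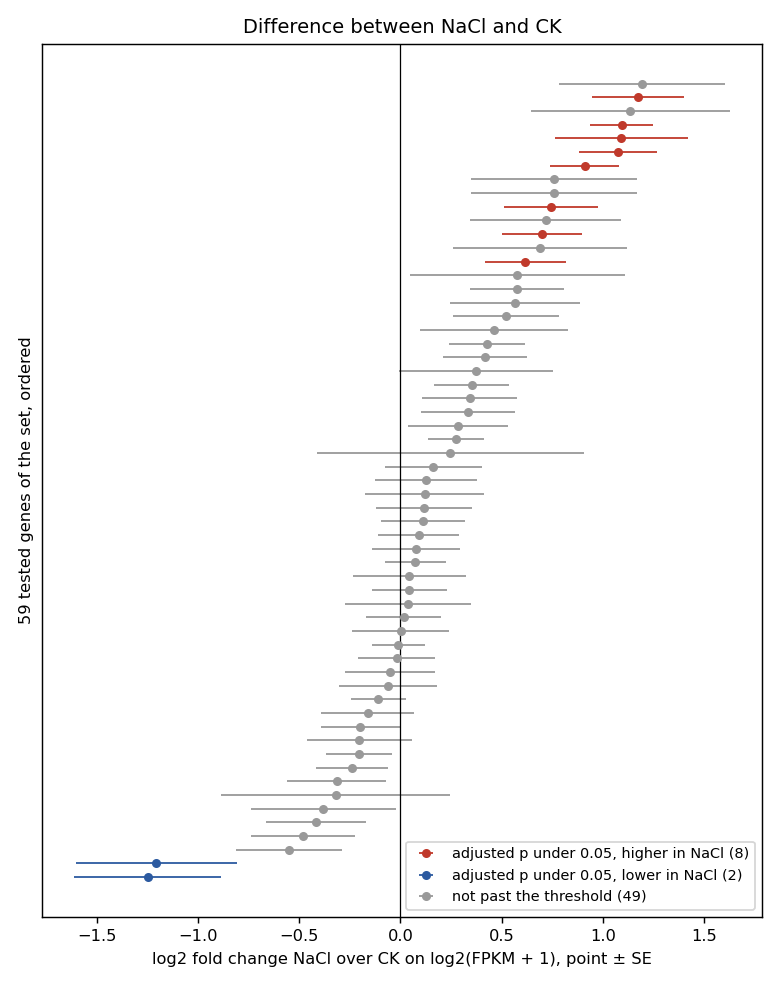
Log2 fold change NaCl over CK (x axis, point ± SE of the limma fit) of the 59 tested genes of the set, ordered. The 8 genes past the threshold on the right lie between 0.62 and 1.17, the 2 on the left at -1.20 and -1.25, and the widest SE (0.66) is that of GRMZM2G018820.

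The 8 genes higher in NaCl than in CK had their highest mean in NaCl, next in CK, and their lowest in NaCl+MT, the last by choice. GRMZM2G112799 had 1.01, 1.02 and 1.76 FPKM in NaCl+MT, against 7.31, 7.6 and 6.75 in NaCl and 2.82, 2.86 and 2.88 in CK. Replicates were close within NaCl and within CK, and NaCl over CK gave a log2 fold change of 1.09 (SE 0.16, adjusted p = 0.000763, limma). GRMZM2G045638 had 9.58, 4.12 and 5.09 FPKM in NaCl+MT, against 24.8, 25.2 and 22.6 in NaCl and 10.1, 10.5 and 9.99 in CK (1.17, SE 0.23, adjusted p = 0.00407). Its NaCl+MT replicate 1 lay just under the CK values.

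GRMZM2G031143 had 2.52, 2.04 and 1.31 FPKM in NaCl+MT, against 8.51, 10.4 and 6.95 in NaCl and 3.17, 3.46 and 3.97 in CK (log2 fold change NaCl over CK 1.07, SE 0.19, adjusted p = 0.00275, limma). GRMZM2G082886 had 22.9, 15.4 and 18.1 in NaCl+MT, against 66.0, 49.0 and 53.0 in NaCl and 30.6, 30.8 and 26.2 in CK (0.91, SE 0.17, adjusted p = 0.00375). The calls of GRMZM2G112799, GRMZM2G045638, GRMZM2G031143 and GRMZM2G082886 were kept without any single library. GRMZM2G348890 had 1.15, 0.231 and 1.05 in NaCl+MT, against 11.3, 5.57 and 7.54 in NaCl and 3.82, 4.59 and 1.64 in CK (1.09, SE 0.33, adjusted p = 0.0332). Its call was lost without CK replicate 1 (0.0598) or 3 (0.113) and without NaCl replicate 1 (0.0897) or 3 (0.0618). The other 3 higher genes, none of them named in RefSeq, had adjusted p-values of 0.0255 to 0.0452, and each was lost without at least 2 of the single libraries.

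The 2 genes lower in NaCl than in CK had their highest mean in CK, next in NaCl, and their lowest in NaCl+MT. Beside PPDK2 this was GRMZM2G031733, with 0.534, 0.186 and 0.370 FPKM in NaCl+MT, against 0.809, 1.61 and 3.76 in NaCl and 4.71, 9.92 and 3.83 in CK. NaCl replicate 3 came close to CK replicate 3, but NaCl and CK did not overlap. The log2 fold change NaCl over CK was -1.25 (SE 0.36, adjusted p = 0.0291, limma). It was lost without CK replicate 1 (0.0555) or 2 (0.0986) and without NaCl replicate 1 (0.0764) or 2 (0.0640).

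The other 49 tested genes passed in neither direction. For these the test does not order NaCl and CK, which is not evidence that the groups were equal. In GRMZM2G179024, GRMZM2G023237, GRMZM6G698196 and GRMZM2G064631 all 3 NaCl values still lay above all 3 CK values (limma adjusted p = 0.188, 0.0544, 0.0918 and 0.172).

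Replicates of the set were uneven in each group. The rule chose the genes from these same values. The counts below, set beside the shares of all tested genes, are therefore a description and not read as a trait of the set. The highest NaCl+MT value was over 2 times the lowest in 18 of the 60 genes, where 6.93% of all tested genes showed this, the highest NaCl value in 23 (22.9% of all tested genes) and the highest CK value in 15 (9.57%). In 17 of the 60 the NaCl+MT mean was under 1 FPKM, where few reads stand behind a value. Among the NaCl libraries replicate 1 was the highest in 24 genes (31.9% of all tested genes), replicate 2 in 10 (29% of all tested genes) and replicate 3 in 26 (39.1%). Among the CK libraries replicate 1 was the lowest in 15 (28% of all tested genes), replicate 2 in 12 (30.7%) and replicate 3 in 33 (41.3%). NaCl replicate 1 was over 2 times both other NaCl libraries in 8 genes, AGA2, bZIP17, GRMZM2G018820, GRMZM2G126900, GRMZM2G055898, GRMZM2G023237 and the identical pair GRMZM2G436295 and GRMZM5G843352 (3.76% of all tested genes). NaCl replicate 3 was so in 6, among them PPDK2, GRMZM2G081464, GRMZM2G031733 and GRMZM2G026956 (1.34% of all tested genes), and NaCl replicate 2 in 0 (1.82% of all tested genes). GRMZM2G023237 had 0.592, 1.17 and 1.25 FPKM in NaCl+MT, against 15.4, 4.75 and 3.03 in NaCl and 2.51, 2.23 and 1.82 in CK. GRMZM2G026956 had 9.48, 6.54 and 8.78 in NaCl+MT, against 16.2, 27.7 and 85.4 in NaCl and 13.5, 23.9 and 10.2 in CK. These genes were singled out after their values were seen. The part of the low depth of NaCl replicate 3 in them was not tested.

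Of the 9 libraries, a NaCl library held the highest value in 41 of the 60 genes (40 of the 59 tested, or 67.8%, where 44.1% of all tested genes did so), replicate 1 in 20, replicate 3 in 17 and replicate 2 in 4. A CK library did so in 19. The rule leaves no NaCl+MT library to be the highest, which over all tested genes it can be, so the share is not read against that of all genes. The lowest value fell in NaCl+MT replicate 2 in 29 genes, in replicate 1 in 20 and in replicate 3 in 11, and the summed FPKM of the 60 genes was 558, 504 and 554 in NaCl+MT replicates 1 to 3, against 1980, 1305 and 1299 in NaCl and 1111, 1074 and 1023 in CK. Without NaCl+MT replicate 2, 71 genes met the rule, 55 of them of the 60. With each library left out in turn, 31 of the 60 met the rule every time.

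In the RefSeq gene order no 2 of the 36 genes placed there lay within 10 protein-coding genes of each other. Of 36 symbol lists of pathways and families, those of auxin, bZIP and photosynthesis genes held 1 gene of the set each, and a list of cytochrome P450 symbols took PPDK2 by the first letters of its other name. The remaining lists, which include heat shock, peroxidase, jasmonate, abscisic acid, ethylene, WRKY, NAC and seed storage genes, held none, with only 9.05% of tested genes named. The lists of cell wall, starch and sugar metabolism, and cyclin and histone genes were also empty, although glucA, AGA2 and a cenH3 match are in the set. An empty list therefore does not show that a pathway is absent.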

How the data were processed

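The authors deposited 1 table of FPKM values, 1 column per library, and per the submitters' processing notes HISAT2, featureCounts, DESeq2 and the build B73 RefGen_v3 were used, with versions and roles not given in the sources used here. The labels do not state strand, so overlapping and antisense genes cannot be told apart, and FPKM of near-identical genes depends on how reads were shared. An empty unnamed column (1) was not used.

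From this table the rule was applied to all 39301 genes. limma 3.58.1 in R 4.3.3 fitted log2(FPKM + 1) of 22379 genes (at least 1 FPKM in at least 3 libraries) with 3 group means over 9 libraries and a mean-variance trend; p-values are 2-sided, Benjamini-Hochberg adjusted over all tested genes, with a threshold of 0.05. Fold changes of low genes are drawn towards 0. An exact permutation test of 3 against 3 cannot go below 0.1. The fit was tested on simulated data. Names came from the synonyms of a RefSeq gene table of Zm-B73-REFERENCE-NAM-5.0, another build, which matched 18908 IDs, so no coordinates are given. Genes described were all named ones, the 8 most abundant, and the 8 with the largest fall, by the smaller of the 2 level differences. Also described were up to 5 rises and 5 falls between NaCl and CK without overlap, and 3 genes on each side of the limit. Relatives sharing a family name, and the genes with uneven NaCl replicates, were added after values were seen. The genes of the set, the lists and the tests were chosen with earlier results of these data known. The p-values set each difference between groups against the spread between these libraries within the groups.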

Additional observations from a re-analysis of the deposited data

How the results depend on the processing

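The rule is sensitive to its limits. The 60 genes became 96 with a limit of -0.5, 31 with -0.8, 15 with -1, 149 with a pseudocount of 0.1, 95 after median-ratio scaling and 103 after quantile normalisation, and 53 to 99 when single libraries were left out; 84 (pseudocount 0.5), 60 (mean of log2 values) and 41 (at least 5 FPKM in 3 libraries) lay within 1.5 times. The counts of 8 and 2 genes higher and lower in NaCl than in CK were 4 and 0 with no filter, 6 and 0 with a minimum of 5 FPKM, 5 and 1 with a pseudocount of 0.1, 6 and 0 with the CK and NaCl libraries alone, and 4 to 9 and 0 to 3 without single libraries. Over all tested genes the counts of 3042 and 2766 were 2004 and 1680 with a minimum of 5 FPKM, where fewer genes were tested, and 2000 to 3184 and 1908 to 2958 without single libraries. Without both NaCl replicates 1 and 3, chosen after seeing the data, the 4 counts were 4, 1, 1278 and 1319, and 86 genes met the rule. The median log2 fold change of the set stayed between 0.08 and 0.25. With the replicate block the 2 counts of the set were 6 and 1 and those of all genes 2552 and 2382; same-numbered libraries correlated between -0.37 and 0.15 in their deviations, so the numbers are not taken to pair the samples. For single genes, 28 of 477 values under alternatives lost their call, 2 gained one in the same direction and 25 changed direction, the 25 all of genes below the threshold with all libraries. Without single libraries the log2 fold change NaCl over CK ran from -0.78 to 0.85 for GRMZM2G018820, from -0.21 to 1.21 for AGA2 (GRMZM2G127147), from -0.18 to 0.80 for bZIP17 (GRMZM2G103647), from -1.01 to 0.43 for GRMZM2G081464, from -0.094 to 0.35 for GRMZM2G059502, from -0.12 to 0.45 for GRMZM2G050234, from -0.30 to 0.028 for GRMZM2G455828, from -0.068 to 0.34 for GRMZM2G033846, from -0.18 to 0.15 for GRMZM2G078033 and from -0.053 to 0.064 for GRMZM2G020653. Array weights gave -0.29 for GRMZM2G018820, -0.13 for GRMZM2G050234, 0.077 for GRMZM2G455828 and 0.075 for GRMZM2G020653, and quantile normalisation 0.0054 for GRMZM2G078033. Without both NaCl replicates 1 and 3 the values were -0.59 for GRMZM2G018820, 0.11 for GRMZM2G455828, 0.075 for GRMZM2G078033 and 0.064 for GRMZM2G020653. The cause of these changes was not tested except where stated. Absolute depth is unknown, which limits genes under 1 FPKM most.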
